A study of Homo sapiens with 24 samples.

Results

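The ABC genes encode ATP-binding cassette proteins, and here they are the 46 genes, of 33113 in the count table, whose symbol is ABC followed by a subfamily letter from A to G and a number. Of these 46 genes, 31 had a mean of at least 10 counts over all samples and are called expressed, as did 11097 of the 33113 genes. Family members that carry other names, among them the TAP peptide transporters, are not included. RNA was sequenced from HCT116, a human colorectal carcinoma line, and from HCT116 oxpl-R, a resistant population that the study derived from HCT116 by repeated short pulses of oxaliplatin, a platinum drug that forms adducts on DNA. Every sample, the untreated ones included, had the genotype TetOn-E1A, in which doxycycline switches on the adenoviral E1A protein. Each line was left untreated (control), given doxycycline at 0.5 µg/mL (E1A), given oxaliplatin at 25 µM for 24 h (oxaliplatin), or given doxycycline and then the same oxaliplatin treatment (E1A + oxaliplatin), which makes 8 groups of 3 samples labelled as biological replicates and 24 samples in all. No group received doxycycline without the transgene, so doxycycline and E1A cannot be told apart, and HCT116 oxpl-R is 1 resistant population, so resistance and any other property of that population cannot be told apart either.

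ABC proteins use ATP to move molecules across membranes. The ABCB1, ABCC and ABCG2 pumps are known for removing drugs, organic anions and glutathione conjugates from cells, and many ABCA and ABCG proteins move lipids and sterols. ABCB6, ABCB8, ABCB9 and ABCB10 work in mitochondria, lysosomes and other inner membranes, ABCD proteins bring very long chain fatty acids into peroxisomes or cobalamin out of lysosomes, and ABCE1 and the ABCF proteins have no membrane domain and act on ribosomes and translation. In colon epithelium the pumps limit the uptake of drugs and toxins from the gut, and raised efflux is a known route to drug resistance.

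The samples held 24837986 to 37927670 counts each, and the ABC genes took 0.106% to 0.199% of them. The epithelial genes EPCAM, CDH1, KRT8, KRT18, KRT19, CLDN7 and CDX2 had counts in all 24 samples, with EPCAM at 173 to 359.9 CPM, that is, counts scaled to the library total, while the colon genes CDX1 and LGALS4 stayed at no more than 0.2 and 0.811 CPM. Of the fibroblast genes, DCN and LUM did not exceed 0.106 CPM, and COL1A1 lay between 12.7 and 39.9 CPM. The summed fibroblast list of 4 genes ranged from 12.9 to 52.8 CPM, the 5 blood and immune genes from 0.52 to 17.3 CPM and the 3 endothelial genes from 0.06 to 0.92 CPM, beside 5525 to 17828 CPM for the 9 epithelial genes. The highest summed level of the 31 expressed ABC genes, 1849.7 CPM, was that of replicate 1 of HCT116 oxpl-R under oxaliplatin. That sample also had the largest share of values that were not whole numbers, 30.4%. It was the highest of its 3 replicates for 18 of the 31 genes, as was replicate 1 of HCT116 under E1A + oxaliplatin. Replicate 3 of HCT116 under oxaliplatin was the highest of its 3 for 20 genes. In these bulk samples, fewer cells with a transcript and less of it per cell cannot be told apart.

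The differences between groups are given as log2 fold changes (log2FC) from edgeR's quasi-likelihood test with its standard error (SE), and a gene is called higher or lower where the p-value, adjusted by the Benjamini-Hochberg method over all genes tested, was below 0.05. Levels of ABC genes are CPM scaled by TMM (trimmed mean of M-values) over all 24 samples, in the order of replicates 1, 2 and 3. The comparisons with treatment share the untreated samples of a line, so their results are set side by side and are not independent. Each fit of a pair of groups was repeated under 12 alternatives. These were RLE scaling, DESeq2, edgeR's filterByExpr, a fit of all 24 samples, the replicate number as a block and the second deposited table. The others removed each of the 6 samples in turn. Fits that compared the response to a treatment between the lines hold 12 samples, so they had 18 alternatives.

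Promoter windows are shown for the 4 ABC genes that were called higher under oxaliplatin in both lines, ABCA3, ABCB6, ABCB9 and ABCG4, and for 2 drug pumps that differed most between the untreated lines in opposite directions, ABCG2 and ABCC2. Each window runs from 250 bases before to 50 bases after a transcript start, 5′ to 3′ on the gene's strand, in the RefSeq table of GRCh38.p14, and the window nearest to the start of the canonical GENCODE transcript was taken. Capitals mark matches on either strand to 4 motifs that did not overlap in these windows. The motif GGGCGG is called a GC box here. The motif CCAAT is known as such and often lies upstream of a start. The motif CACGTG is an E-box, the same on both strands. The motif TATAAA is the core of a TATA box.
ABCA3, chr16:2340679-2340978, minus strand: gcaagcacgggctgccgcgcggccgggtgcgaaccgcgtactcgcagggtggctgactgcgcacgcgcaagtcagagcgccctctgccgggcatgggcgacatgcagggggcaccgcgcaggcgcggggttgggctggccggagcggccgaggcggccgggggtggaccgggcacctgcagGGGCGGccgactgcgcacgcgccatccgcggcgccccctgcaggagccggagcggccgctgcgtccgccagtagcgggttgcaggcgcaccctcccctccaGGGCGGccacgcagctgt
ABCB6, chr2:219218909-219219208, minus strand: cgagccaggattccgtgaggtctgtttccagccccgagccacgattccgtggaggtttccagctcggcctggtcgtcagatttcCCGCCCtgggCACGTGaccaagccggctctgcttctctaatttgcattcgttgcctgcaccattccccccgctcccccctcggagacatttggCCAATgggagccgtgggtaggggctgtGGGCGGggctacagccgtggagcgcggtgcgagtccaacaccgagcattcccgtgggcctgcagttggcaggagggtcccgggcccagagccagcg
ABCB9, chr12:122966414-122966713, minus strand: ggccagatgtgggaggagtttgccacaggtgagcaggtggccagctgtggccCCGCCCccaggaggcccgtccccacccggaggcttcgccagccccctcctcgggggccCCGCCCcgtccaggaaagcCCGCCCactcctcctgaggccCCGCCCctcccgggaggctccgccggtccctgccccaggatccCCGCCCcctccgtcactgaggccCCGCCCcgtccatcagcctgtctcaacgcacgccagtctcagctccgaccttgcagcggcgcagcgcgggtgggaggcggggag
ABCG4, chr11:119148802-119149101, plus strand: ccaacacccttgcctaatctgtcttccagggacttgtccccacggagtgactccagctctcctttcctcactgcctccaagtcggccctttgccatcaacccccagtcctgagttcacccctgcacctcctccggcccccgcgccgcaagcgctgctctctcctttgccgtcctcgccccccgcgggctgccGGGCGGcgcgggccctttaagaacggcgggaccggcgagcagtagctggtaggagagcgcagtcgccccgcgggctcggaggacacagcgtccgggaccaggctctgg
ABCG2, chr4:88158590-88158889, minus strand: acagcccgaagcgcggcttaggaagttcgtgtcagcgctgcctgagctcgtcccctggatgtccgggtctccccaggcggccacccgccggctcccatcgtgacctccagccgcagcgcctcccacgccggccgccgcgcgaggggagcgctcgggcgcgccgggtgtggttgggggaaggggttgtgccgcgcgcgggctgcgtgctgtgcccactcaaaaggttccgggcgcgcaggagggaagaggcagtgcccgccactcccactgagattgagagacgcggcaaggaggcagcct
ABCC2, chr10:99782390-99782689, plus strand: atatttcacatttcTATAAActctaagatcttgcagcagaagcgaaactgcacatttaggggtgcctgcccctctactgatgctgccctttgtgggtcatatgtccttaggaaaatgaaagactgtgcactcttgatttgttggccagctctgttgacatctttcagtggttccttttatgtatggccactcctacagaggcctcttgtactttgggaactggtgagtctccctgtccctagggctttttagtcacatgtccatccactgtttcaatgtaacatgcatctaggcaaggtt
The windows of the 4 genes called higher under oxaliplatin held 2, 2, 6 and 1 GC boxes in the order printed, while ABCB6 also held 1 CCAAT box and 1 E-box. The ABCG2 window held none of the 4 motifs, and the ABCC2 window held 1 TATA box. ABCG2 had 5 windows in RefSeq, ABCB9 had 3 and ABCG4 had 2, of which 1 each is printed. Among the windows not printed, those of ABCG2 held a GC box and an E-box, and those of ABCB9 a CCAAT box and an E-box. Of the 46 ABC genes, 35 had a window in the table, with 53 windows in all. A GC box was in 47.2% of these windows, in 59.0% of the 39 windows of expressed ABC genes and in 44.95% of all 35116 windows of the table, while of the 53 and of all windows 22.6% and 34.61% held a CCAAT box, 17.0% and 7.26% an E-box, and 15.1% and 11.53% a TATA box. A match to these letters describes the window and does not show that a factor binds there.

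The 31 expressed genes comprised 9 of 10 efflux pumps, 9 of 17 lipid and sterol transporters, all 5 transporters of mitochondria and endolysosomes, 3 of 4 peroxisomal and cobalamin transporters, all 4 soluble ATPases and 1 of 4 other genes, ABCC6, which is known for its part in preventing ectopic mineralisation. Neither of the 2 channel regulators, the sulfonylurea receptors ABCC8 and ABCC9, was expressed. Just inside the limit were ABCC11, a pump of lipophilic anions, with a mean of 10.04 counts and ABCA4, the retinal transporter, with 14.58. Just outside were ABCA6 with 5.17 and ABCA10 with 4.96. ABCC13, annotated as a long noncoding RNA, was at 0 in all 24 samples, and a count of 0 allows up to 3 counts per sample. Requiring a mean of 10 counts in at least 1 group, instead of over all samples, added ABCA6 and ABCD2 for 33 genes. Those 2 genes reached group means of 16.33 and 11 counts. Among the lipid transporters that were not expressed were ABCA13, ABCG5, ABCG8 and ABCB4, with means of 0.04, 0.08, 0.04 and 0.54 counts, and the bile salt pump ABCB11 had a mean of 0.17.

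Per kilobase of the canonical transcript, the highest levels in untreated HCT116 cells belonged to the soluble ATPases. ABCE1, which recycles ribosomes, stood at 61.8 ± 9.66 CPM per kb (mean ± SD, n = 3), ABCF3 at 39.8 ± 3.04, ABCF1, a factor of translation initiation, at 38.99 ± 4.20 and ABCF2 at 35.8 ± 3.41. The ranges of ABCF3, ABCF1 and ABCF2 overlapped. Next came the organic anion pumps ABCC2 at 31.7 ± 1.13 and ABCC1 at 27.8 ± 3.16 CPM per kb, which overlapped each other. The classic multidrug pumps were far lower, with ABCG2 at 0.876 ± 0.0815 and ABCB1, or P-glycoprotein, at 0.198 ± 0.0713 CPM per kb. In untreated HCT116 oxpl-R cells ABCC2 and ABCC1 stood at 15.1 ± 1.54 and 17.97 ± 1.19 CPM per kb, ABCG2 at 3.35 ± 1.60 and ABCB1 at 0.39 ± 0.155. Of the sterol exporters, ABCG1 was at 0.437 ± 0.0577 in HCT116 and 4.79 ± 0.633 CPM per kb in HCT116 oxpl-R and ABCA1 at 0.0743 ± 0.0641 and 0.097 ± 0.0123.

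**Figure D1:**
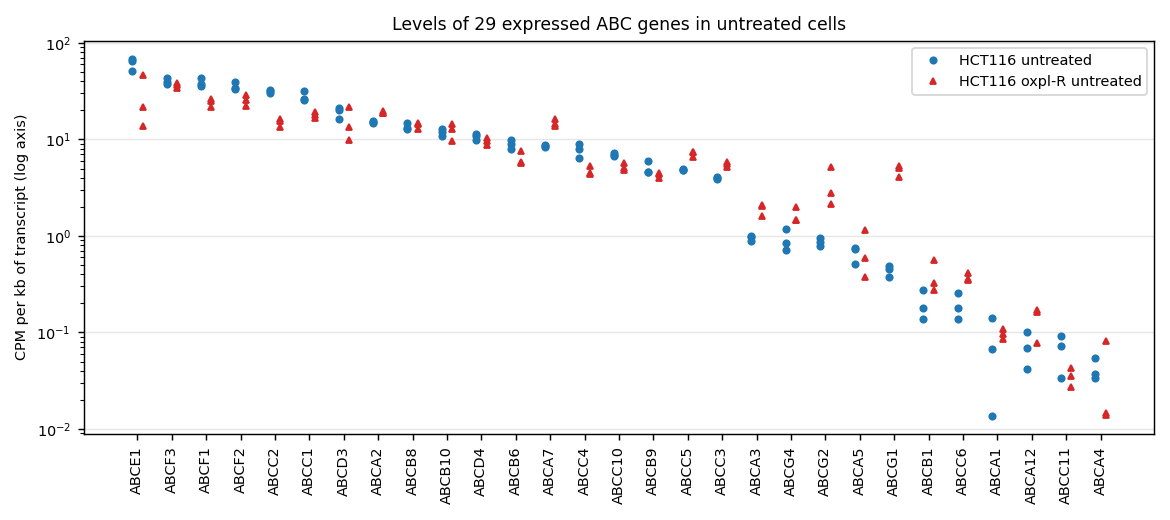
Level of 29 of the 31 expressed ABC genes in the 6 untreated samples, in CPM per kb of canonical transcript on a log axis, with genes ordered by their mean in HCT116 (circles) and HCT116 oxpl-R beside it (triangles). Each point is 1 sample, and ABCG1 and ABCG2 are the genes whose triangles lie farthest above their circles.

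Between untreated HCT116 oxpl-R and HCT116 cells, 17 of the 31 expressed ABC genes were called different, 9 higher and 8 lower in the resistant cells, which is 54.8% of them beside 41.2% of all expressed genes tested. Of all expressed genes 20.1% were higher and 21.1% lower. The median log2FC of the 31 genes was 0.04, beside -0.02 over all expressed genes. Of the 9 lipid and sterol transporters 5 were higher and none was lower, while of the 9 efflux pumps 3 were higher and 4 lower. Of the 4 soluble ATPases 3 were lower. With a fold change above 2 as well (|log2FC| above 1), 5 genes remained, ABCG1, ABCG2 and ABCA3 higher and ABCC2 and ABCE1 lower, beside 12.5% of all expressed genes. Among the genes below the expression limit ABCA6 was also called higher. Of the 17 calls, 8 held under all 12 alternatives, those of ABCA3, ABCA7, ABCC1, ABCC2, ABCC4, ABCF1, ABCG1 and ABCG2.

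ABCG1, which hands cholesterol to lipoprotein particles, showed the widest difference of the family. Its levels were 1.44, 1.11 and 1.36 CPM in untreated HCT116 and 15.7, 12.1 and 15.01 CPM in untreated HCT116 oxpl-R. All resistant samples lay above all parental samples, and ABCG1 was 11-fold higher (log2FC 3.46 ± 0.19 (SE), adjusted p = 5.5e-08). The difference was, under E1A, 3.36 ± 0.34 (adjusted p = 6e-05), under oxaliplatin 3.35 ± 0.32 (adjusted p = 1.83e-05) and under both 3.30 ± 0.31 (adjusted p = 3.43e-06). ABCG1 was called higher under each of the alternative settings tried in all 4 comparisons, and its log2FC there ranged from 2.92 to 3.68. The gene lies on chromosome 21, where the 107 expressed genes had a median log2FC of 0.30 between the untreated lines; the part of gene dosage in its level was not tested.

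ABCG2, the breast cancer resistance protein, is an exporter of many drugs and dyes. In untreated HCT116 it measured 3.35, 4.03 and 3.68 CPM, and in untreated HCT116 oxpl-R 11.6, 8.94 and 21.8 CPM. The groups did not overlap, and the difference was 3.84-fold (log2FC 1.94 ± 0.28 (SE), adjusted p = 0.000179). The resistant samples were uneven, with replicate 3 the highest in each of the 4 treatments. Under E1A the resistant values were 5.42, 5.83 and 18.1 CPM and the log2FC was 1.41 ± 0.44 (adjusted p = 0.0437). Without replicate 3 of the resistant E1A samples it was 0.54 with an adjusted p of 0.118, and the call was also lost without any 1 of the parental E1A samples, where the adjusted p was 0.105 to 0.141, with filterByExpr (0.0871) and in the fit of all 24 samples (0.0653). Under oxaliplatin the lines differed by 2.07 ± 0.46 (adjusted p = 0.00633) and under E1A + oxaliplatin by 1.37 ± 0.41 (adjusted p = 0.0296). The last of these calls was lost without replicate 3 of HCT116 oxpl-R, with a log2FC of 0.96 and an adjusted p of 0.178, with filterByExpr (0.0685) and in the second table (0.0709).

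ABCB1 was low in both lines. Its levels were 1.44, 0.941 and 0.714 CPM in untreated HCT116 and 1.69, 1.45 and 2.95 CPM in untreated HCT116 oxpl-R. The resistant samples were all higher, but the difference did not pass the test (log2FC 0.97 ± 0.37 (SE), adjusted p = 0.066). It did so without replicate 1 of the parental controls, at 1.30 with an adjusted p of 0.0409, and without replicate 2 of the resistant controls, at 1.17 with an adjusted p of 0.016. Over the 12 alternatives the log2FC ranged from 0.038 to 1.30, with an adjusted p of up to 0.962. Under oxaliplatin the groups overlapped (log2FC 1.72 ± 0.66 (SE), adjusted p = 0.0848). Without replicate 2 of HCT116 oxpl-R, which had 0.57 CPM, the log2FC was 2.18 with an adjusted p of 0.00288, with the replicate number as a block it was 1.61 with an adjusted p of 0.018, and in the fit of all 24 samples 1.78 with 0.00833. In E1A + oxaliplatin ABCB1 was called higher, with 0.946, 0.855 and 1.35 CPM in HCT116 and 3.05, 2.27 and 4.58 CPM in HCT116 oxpl-R and a log2FC of 1.65 ± 0.36 (adjusted p = 0.00462), although its adjusted p in the second table was 0.101. Under E1A alone it was 0.86 ± 0.34 (adjusted p = 0.11), which passed at an adjusted p of 0.00795 without replicate 2 of HCT116 oxpl-R. Over the 12 alternatives the log2FC of ABCB1 ranged from 1.18 to 2.37 under oxaliplatin and from 0.50 to 1.05 under E1A alone.

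Several ABCC pumps were lower in the resistant cells, above all ABCC2, or MRP2, which exports glutathione conjugates. ABCC2 measured 184, 190.4 and 177 CPM in untreated HCT116 and 89.2, 77.8 and 95.5 CPM in untreated HCT116 oxpl-R. Every resistant sample was below every parental one, and ABCC2 was 2.09-fold lower (log2FC -1.06 ± 0.11 (SE), adjusted p = 1.48e-05). With E1A the levels were 142, 137 and 97.4 CPM in HCT116 against 62.3, 55.2 and 58.7 CPM in HCT116 oxpl-R and the log2FC was -0.98 ± 0.16 (adjusted p = 0.00168). Under oxaliplatin the groups overlapped. The HCT116 samples at 114 and 102 CPM lay within the range of HCT116 oxpl-R, and replicate 3 of HCT116, at 193 CPM, lay above it. The difference did not pass the test (log2FC -0.50 ± 0.27 (SE), adjusted p = 0.221). Under E1A + oxaliplatin the log2FC was -0.70 ± 0.21 (adjusted p = 0.0296). That call was lost without replicate 2 of HCT116 (adjusted p = 0.0528) and without replicate 2 or 3 of HCT116 oxpl-R (0.0624 and 0.0806), and in the second table the log2FC was -0.38 with an adjusted p of 0.273.

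ABCC1, or MRP1, another pump of glutathione conjugates, measured 169, 169 and 204 CPM in untreated HCT116 and 117, 124 and 109 CPM in untreated HCT116 oxpl-R, again without overlap. It was called lower in untreated cells, at -0.62 ± 0.11 (adjusted p = 0.00112), and under E1A, at -0.62 ± 0.14 (adjusted p = 0.00942), where the call was lost without replicate 1 or 2 of HCT116 (adjusted p = 0.0603 and 0.0746). It was not called under oxaliplatin, at -0.46 ± 0.23 (adjusted p = 0.177), or under E1A + oxaliplatin, at -0.49 ± 0.22 (adjusted p = 0.14). ABCC4, a pump of cyclic nucleotides and other organic anions, measured 47.1, 51.96 and 37.3 CPM in untreated HCT116 and 26, 26.3 and 31.4 CPM in untreated HCT116 oxpl-R, where it was lower (log2FC -0.70 ± 0.15 (SE), adjusted p = 0.00336). Its log2FC in the other comparisons of the lines was -0.36 ± 0.18 (adjusted p = 0.214) with E1A, 0.067 ± 0.33 (adjusted p = 0.906) with oxaliplatin and -0.28 ± 0.21 (adjusted p = 0.401) with both, and with E1A it was -0.52 (adjusted p = 0.0412) without replicate 3 of HCT116 oxpl-R. ABCC10, or MRP7, was lower in all 4 comparisons, at -0.41 ± 0.13 (adjusted p = 0.027) untreated, -0.59 ± 0.17 (adjusted p = 0.0329) with E1A, -0.76 ± 0.22 (adjusted p = 0.0241) with oxaliplatin and -0.73 ± 0.21 (adjusted p = 0.0268) with both. Each of these calls depended on single libraries, since the adjusted p rose to between 0.0541 and 0.152 without some of them. These were, in untreated cells, any 1 parental replicate or replicate 1 of the resistant cells, and with E1A any 1 parental replicate or replicate 2 of the resistant cells. With oxaliplatin they were replicates 1 and 2 of HCT116 and 2 and 3 of HCT116 oxpl-R, and with both replicate 2 of HCT116 and replicates 1 and 2 of HCT116 oxpl-R. The untreated call was also lost in the fit of all 24 samples (adjusted p = 0.113) and in the second table (-0.24, 0.3), and the call with both treatments in the second table (-0.59, 0.135). ABCC2 lies on chromosome 10, ABCC1 on 16, ABCC4 on 13 and ABCC10 on 6. Between the untreated lines, expressed genes there had median log2FC of -0.25, -0.25, -0.18 and -0.25. ABCG2 and ABCC3, called higher, lie on chromosomes 4 and 17, with medians of -0.29 and -0.16. The canonical transcripts of all 6 of these pumps are 4 kb or longer. Expressed genes of that length had a median log2 difference of -0.19 between the untreated lines and -0.21 with E1A. Those under 2 kb had 0.15 in both. Under oxaliplatin the medians of the long and short genes were 0.11 and 0.05, and with both treatments 0.04 and 0.11. The parts of gene dosage and transcript length in these levels were not tested.

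The pumps ABCC3 and ABCC5 stood higher in the untreated resistant cells. ABCC3, or MRP3, a pump of bile salts and glucuronides, measured 22.2, 22.9 and 23.4 CPM in HCT116 and 31.9, 29.3 and 33.5 CPM in HCT116 oxpl-R (log2FC 0.48 ± 0.13 (SE), adjusted p = 0.012), although without replicate 1 of the parental controls its adjusted p was 0.0601 and in the fit of all 24 samples 0.074. Under oxaliplatin ABCC3 was 25.2, 25.9 and 27.1 CPM in HCT116 against 56.7, 46.5 and 41.95 CPM in HCT116 oxpl-R (log2FC 0.80 ± 0.23 (SE), adjusted p = 0.0236), and with E1A, at 0.14 ± 0.18 (adjusted p = 0.591), and E1A + oxaliplatin, at 0.26 ± 0.22 (adjusted p = 0.458), it was not called. In the second deposited table the last pair had the opposite sign, -0.065 and -0.23, and the difference under oxaliplatin was 0.38 with an adjusted p of 0.252. That call was also lost without replicate 1 or 2 of HCT116 (adjusted p = 0.0912 and 0.0833) or replicate 2 of HCT116 oxpl-R (0.0577). ABCC5, a cyclic nucleotide pump on chromosome 3, measured 27.6, 28.1 and 28.9 CPM in HCT116 and 43.5, 42.96 and 38.1 CPM in HCT116 oxpl-R (log2FC 0.57 ± 0.12 (SE), adjusted p = 0.00339; 0.0506 in the fit of all 24 samples). The 636 expressed genes of chromosome 3 had a median log2FC of 0.42 between the untreated lines, and ABCF3 on the same chromosome was at -0.12 ± 0.11. ABCC5 was not called with oxaliplatin, at 0.66 ± 0.24 (adjusted p = 0.0666), with E1A, at 0.36 ± 0.16 (adjusted p = 0.145), or with both, at 0.49 ± 0.23 (adjusted p = 0.172). It passed under oxaliplatin with the replicate number as a block (0.67, adjusted p = 0.0494), with DESeq2 (0.0279), with filterByExpr (0.0374), in the fit of all 24 samples (0.00367) or without replicate 3 of HCT116 (0.83, 0.03), and under E1A + oxaliplatin without replicate 1 of HCT116 (0.69, 0.02).

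Among the lipid transporters, ABCA3, which loads phospholipid into lamellar bodies, and ABCA7, which exports phospholipid, were called higher in the resistant cells under all 4 treatments. ABCA3 measured 5.83, 6.39 and 6.67 CPM in untreated HCT116 and 13.6, 10.7 and 13.9 CPM in untreated HCT116 oxpl-R. The groups were apart, with log2FC 1.02 ± 0.16 (adjusted p = 0.000398), and the difference was 1.06 ± 0.22 (adjusted p = 0.00572) with E1A, 1.03 ± 0.26 (adjusted p = 0.0139) with oxaliplatin and 0.98 ± 0.28 (adjusted p = 0.0207) with both. Without replicate 2 of HCT116 under oxaliplatin, the adjusted p of ABCA3 there was 0.0679. With both treatments it was 0.116 or 0.0588 without replicate 2 or 3 of HCT116, 0.0566 without replicate 3 of HCT116 oxpl-R and 0.112 in the second table. ABCA7 measured 59.8, 57.6 and 58.8 CPM in untreated HCT116 and 93.6, 112 and 99.5 CPM in untreated HCT116 oxpl-R, and its log2FC was 0.80 ± 0.11 (adjusted p = 0.000146), 0.90 ± 0.17 (adjusted p = 0.00458), 1.02 ± 0.23 (adjusted p = 0.00624) and 0.84 ± 0.20 (adjusted p = 0.00884) in the same order of treatments, with all 4 calls held under all 12 alternatives. ABCA2, an endolysosomal lipid transporter, was called higher in untreated cells, at 0.35 ± 0.099 (adjusted p = 0.0177), and with oxaliplatin, at 0.76 ± 0.23 (adjusted p = 0.029) alone and 0.69 ± 0.19 (adjusted p = 0.0188) with E1A. Its untreated call was lost without replicate 1 or 2 of HCT116 (adjusted p = 0.0758 and 0.059), in the fit of all 24 samples (0.213) and in the second table (0.203), and its call under oxaliplatin without replicate 1 or 2 of HCT116 (0.103 and 0.102). With both treatments the call was lost without replicate 2 or 3 of HCT116 (0.0891 and 0.0874) or replicate 1 of HCT116 oxpl-R (0.0844) and in the second table (0.122). ABCG4, a sterol exporter best known from brain, was called higher in the same 3 comparisons, at 0.84 ± 0.21 (adjusted p = 0.00972), 1.00 ± 0.28 (adjusted p = 0.0236) and 0.88 ± 0.25 (adjusted p = 0.0251). In the second table the first of these was 0.49 with an adjusted p of 0.268 and the last 0.81 with 0.101. The call under oxaliplatin was lost without replicate 1 or 2 of HCT116 (0.0522 and 0.104), and that with both treatments without replicate 3 of HCT116 (0.102) or replicate 2 or 3 of HCT116 oxpl-R (0.065 and 0.0679). ABCC6 was called higher in untreated cells, at 0.97 ± 0.32 (adjusted p = 0.0367), and with E1A, at 1.53 ± 0.34 (adjusted p = 0.0086), and its reads can be split with the pseudogenes ABCC6P1 and ABCC6P2, which had means of 6.08 and 11.25 counts. In the second table ABCC6 was at -0.012 (adjusted p = 0.988) in untreated cells and 1.22 (0.0943) with E1A. The untreated call was also lost with DESeq2 (0.07), in the fit of all 24 samples (0.0588) and without replicate 2 or 3 of HCT116 (0.121 and 0.0941) or replicate 1 or 2 of HCT116 oxpl-R (0.0702 and 0.0873).

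Of the soluble ATPases, ABCF1 was lower in the resistant cells under all 4 treatments. It measured 121, 129 and 149 CPM in untreated HCT116 and 88.6, 85.1 and 73.8 CPM in untreated HCT116 oxpl-R, with log2FC -0.68 ± 0.12 (adjusted p = 0.000787) untreated, -0.64 ± 0.15 (adjusted p = 0.0136) with E1A, -0.76 ± 0.23 (adjusted p = 0.03) with oxaliplatin and -0.70 ± 0.20 (adjusted p = 0.0242) with both. The untreated call held under all 12 alternatives. The call with E1A was lost without replicate 1 or 2 of HCT116 (adjusted p = 0.0716 and 0.0978), that with oxaliplatin without any 1 parental replicate or replicate 2 or 3 of HCT116 oxpl-R (0.0563 to 0.122), and that with both without replicate 2 of HCT116 or replicate 2 or 3 of HCT116 oxpl-R (0.0565 to 0.0917). ABCF2 was called lower in untreated cells and with E1A, at -0.47 ± 0.12 (adjusted p = 0.0106) and -0.54 ± 0.16 (adjusted p = 0.0381), and shares exons with the readthrough gene ABCF2-H2BK1, which had a mean of 2119.79 counts and was at -0.54 ± 0.12 (adjusted p = 0.0041) in untreated cells. The untreated call of ABCF2 was lost without replicate 3 of HCT116 (adjusted p = 0.0588) and in the fit of all 24 samples (0.11), and the call with E1A without any 1 parental replicate or replicate 3 of HCT116 oxpl-R (0.0509 to 0.18). ABCE1 was the least even of the 5 genes past a fold change of 2. It measured 256, 268 and 198 CPM in untreated HCT116 and 83.7, 53.5 and 181 CPM in untreated HCT116 oxpl-R, so that replicate 3 of the resistant cells came close to the lowest parental sample. The log2FC was -1.18 ± 0.32 (adjusted p = 0.0131). Without replicate 3 of the parental controls the adjusted p was 0.0818, without replicate 1 of the resistant controls it was 0.0731, DESeq2 gave 0.0856, filterByExpr 0.0584 and the fit of all 24 samples 0.101. Without replicate 3 of the resistant controls the log2FC was -1.78. Replicate 3 of HCT116 oxpl-R was the highest of its group in all 4 treatments for 6 genes, among them ABCA5, ABCB1, ABCD3, ABCE1 and ABCG2, and replicate 1 for ABCF1 and ABCG1. No expressed ABC gene had such a replicate among the parental groups. The same count was not made over all expressed genes.

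Among the organelle transporters, ABCB6, which is tied to porphyrin handling, was lower in the resistant cells in all 4 comparisons, at -0.48 ± 0.15 (adjusted p = 0.0302) untreated, -0.57 ± 0.17 (adjusted p = 0.0404) with E1A, -0.77 ± 0.24 (adjusted p = 0.0358) with oxaliplatin and -0.83 ± 0.22 (adjusted p = 0.0149) with both. In untreated cells this call was lost without any 1 parental replicate or replicate 1 or 2 of HCT116 oxpl-R (adjusted p = 0.0508 to 0.158), with filterByExpr (0.0603) and in the fit of all 24 samples (0.0963). With E1A it was lost without any 1 parental replicate or replicate 2 of HCT116 oxpl-R (0.0656 to 0.179), with oxaliplatin without any 1 parental replicate or replicate 2 or 3 of HCT116 oxpl-R (0.0541 to 0.197), and with both without replicate 1 or 2 of HCT116 oxpl-R (0.0519 and 0.09). In the second table the adjusted p was 0.0751, 0.134, 0.0561 and 0.0606 in the same order. ABCB9 and ABCB10 were called in none of the 4 comparisons, and ABCB8 only under oxaliplatin alone, where it was lower at -0.78 ± 0.23 (adjusted p = 0.0277). That call was lost without replicate 1 or 2 of HCT116 (0.165 and 0.1) and without replicate 2 or 3 of HCT116 oxpl-R (0.0665 and 0.115). ABCD3, of peroxisomes, and ABCD4, the cobalamin transporter, were called in none of the 4 comparisons. In all, 9 of the 31 genes were called in none of them, 4 were called higher in all 4 (ABCA3, ABCA7, ABCG1 and ABCG2) and 3 lower in all 4 (ABCB6, ABCC10 and ABCF1), while none was called in both directions. Of these 7 genes, ABCA7 and ABCG1 kept the call under all 12 alternatives in each of the 4 comparisons. How many of all expressed genes were called in all 4 comparisons or in none was not counted.

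With E1A in both lines, 11 of the 31 ABC genes were called, 5 higher and 6 lower in the resistant cells, beside 26.4% of all expressed genes, 15.6% higher and 10.8% lower. Under oxaliplatin 14 were called, 10 higher and 4 lower, beside 29.3%, 13.7% higher and 15.6% lower. Under E1A + oxaliplatin 13 were called, 9 higher and 4 lower, beside 26.8%, 14.4% higher and 12.3% lower. The 31 genes had medians of 0.14, 0.34 and 0.34 in these 3 comparisons, and all expressed genes 0.06, 0 and 0.05. Of the 9 lipid transporters 7 were called higher under oxaliplatin, with and without E1A. The count of called genes among all 31 ABC genes also depended on single samples. With E1A in both lines this count was 5 without replicate 1 or 2 of HCT116 and 7 without replicate 3. Under oxaliplatin it was 6 or 5 without replicate 1 or 2 of HCT116 and 8 without replicate 3 of HCT116 oxpl-R. Under E1A + oxaliplatin it was 8 without replicate 2 of either line, and 5 in the second deposited table. The calls held under all 12 alternatives for 4 of the 11 genes with E1A (ABCA3, ABCA7, ABCC2 and ABCG1), 4 of the 14 with oxaliplatin (ABCA1, ABCA7, ABCG1 and ABCG2) and 4 of the 13 with both (ABCA1, ABCA7, ABCA12 and ABCG1).

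The cholesterol exporter ABCA1 and ABCA12, a lipid transporter of keratinocytes, were called between the lines in both comparisons with oxaliplatin and in neither of the other two. The test of whether the lines respond differently to oxaliplatin was not passed by ABCA1, at 2.33 ± 0.75 (adjusted p = 0.112), or by ABCA12, at 1.23 ± 0.85 (adjusted p = 0.519). ABCA1 had 1.47, 0.706 and 0.143 CPM in untreated HCT116 and 0.883, 1.14 and 1.01 CPM in untreated HCT116 oxpl-R (log2FC 0.38 ± 0.59 (SE), adjusted p = 0.655). Under oxaliplatin it had 0.466, 0.435 and 1.04 CPM in HCT116 and 3.19, 5.62 and 4.53 CPM in HCT116 oxpl-R. The resistant samples then lay above all parental ones, at 6.36-fold (log2FC 2.67 ± 0.45 (SE), adjusted p = 0.00108). With E1A + oxaliplatin the levels were 0.56, 0.41 and 0.809 CPM in HCT116 against 3.96, 2.98 and 1.41 CPM in HCT116 oxpl-R (log2FC 2.22 ± 0.44 (SE), adjusted p = 0.00242). ABCA12 had 1.08, 1.05 and 4.93 CPM in HCT116 and 8.51, 4.56 and 20.5 CPM in HCT116 oxpl-R under oxaliplatin. These groups overlapped, with replicate 3 high in both (log2FC 2.17 ± 0.64 (SE), adjusted p = 0.0277). Without replicate 3 or 1 of HCT116 oxpl-R the log2FC was 1.42 or 2.34, with an adjusted p of 0.144 or 0.0673, and filterByExpr gave an adjusted p of 0.0537. Without replicate 3 of HCT116 the log2FC was 3.32 with an adjusted p of 0.0106. With E1A + oxaliplatin ABCA12 measured 4.03, 1.95 and 1.11 CPM in HCT116 against 11.3, 8.23 and 6.42 CPM in HCT116 oxpl-R, without overlap (log2FC 1.87 ± 0.38 (SE), adjusted p = 0.00316), and without replicate 1 of HCT116 the log2FC was 2.50.

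Oxaliplatin for 24 h changed 11 of the 31 ABC genes in the parental HCT116 cells, 7 higher and 4 lower, beside 33.5% of all expressed genes, 18.8% higher and 14.7% lower. Among the transporters of mitochondria and endolysosomes, ABCB6, ABCB8 and ABCB9 were higher and ABCB10 was lower. The efflux pumps had 1 call of 9, ABCC10. The median log2FC was 0.15 for the 31 genes and -0.01 for all expressed genes. Without replicate 1 or 2 of the untreated cells the count was 7, and 6 of the 11 calls held under all 12 alternatives, those of ABCA3, ABCB6, ABCB9 and ABCC10 among them.

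ABCB9, a lysosomal peptide transporter, went from 15.9, 16.2 and 20.7 CPM without treatment to 44.9, 47.1 and 39.6 CPM with oxaliplatin in HCT116, 2.63-fold (log2FC 1.40 ± 0.17 (SE), adjusted p = 0.00102). In HCT116 oxpl-R it went from 15.2, 14.1 and 15.5 to 51.8, 36.2 and 39.8 CPM, 2.87-fold (log2FC 1.52 ± 0.22 (SE), adjusted p = 0.00145). The treated samples of each line lay above all its untreated samples, and the difference between the responses of the lines did not pass the test of the interaction (log2FC 0.14 ± 0.27 (SE), adjusted p = 0.966). ABCB6 went from 23.9, 26.8 and 29.1 to 53.4, 66.7 and 56.9 CPM in HCT116 (log2FC 1.23 ± 0.15 (SE), adjusted p = 0.00114) and from 17.6, 16.8 and 22.5 to 46.4, 30.6 and 33.6 CPM in HCT116 oxpl-R (log2FC 0.96 ± 0.24 (SE), adjusted p = 0.0398). ABCA3 went from 5.83, 6.39 and 6.67 to 11.7, 10.4 and 13.9 CPM in HCT116 (log2FC 1.01 ± 0.20 (SE), adjusted p = 0.0063) and from 13.6, 10.7 and 13.9 to 28.9, 24.9 and 24.4 CPM in HCT116 oxpl-R (log2FC 1.04 ± 0.22 (SE), adjusted p = 0.0194). ABCG4 completed the 4 genes called higher in both lines, with 3.25, 2.76 and 4.53 CPM untreated against 6.49, 5.30 and 6.73 CPM treated in HCT116 (log2FC 0.89 ± 0.25 (SE), adjusted p = 0.0286) and 5.58, 5.62 and 7.53 CPM against 14.8, 12.3 and 12.2 CPM in HCT116 oxpl-R (log2FC 1.07 ± 0.24 (SE), adjusted p = 0.024). In HCT116 oxpl-R the calls of ABCA3 and ABCG4 were lost without replicate 1 of the untreated cells (adjusted p = 0.079 and 0.143) and without replicate 2 (0.107 and 0.106). The call of ABCB6 there was lost without the same 2 samples (0.179 and 0.154) and without replicate 1 of the treated cells (0.0799). In HCT116 the call of ABCG4 was lost without replicate 1 or 2 of the untreated cells (0.121 and 0.141) or replicate 1 of the treated cells (0.0721) and in the second table (0.58, 0.271). How many of all expressed genes were called higher in both lines was not counted.

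ABCE1 fell from 256, 268 and 198 to 77.4, 119 and 131 CPM in HCT116 (log2FC -1.06 ± 0.20 (SE), adjusted p = 0.00586; 0.0976 in a fit of all 24 samples) and had overlapping values in HCT116 oxpl-R, 83.7, 53.5 and 181 CPM untreated against 82.5, 49.1 and 183 CPM treated (log2FC -0.018 ± 0.47 (SE), adjusted p = 1). The peroxisomal transporter ABCD3 fell in HCT116, from 73.4, 76.7 and 58.6 to 23.99, 33.6 and 47.1 CPM (log2FC -0.92 ± 0.23 (SE), adjusted p = 0.0194), and the mitochondrial transporter ABCB10 from 46.6, 50.01 and 42.3 to 28.3, 30.7 and 24.7 CPM (log2FC -0.66 ± 0.15 (SE), adjusted p = 0.0129). Both calls were lost without replicate 1 or 2 of the untreated cells, with adjusted p of 0.0765 and 0.0862 for ABCD3 and 0.071 and 0.0844 for ABCB10. ABCB8 and ABCC10 rose in HCT116, at 0.53 ± 0.13 (adjusted p = 0.0175) and 0.78 ± 0.13 (adjusted p = 0.00342). The call of ABCB8 was lost without replicate 1 or 2 of the untreated cells (0.0931 and 0.108) or replicate 1 of the treated cells (0.086), in the fit of all 24 samples (0.0765) and in the second table (0.0794). Long transcripts as a class stood lower in the treated parental cells: the 3904 expressed genes with a canonical transcript of 4 kb or longer had a median log2 difference of -0.38 and those under 2 kb 0.13, and 20 of the 31 expressed ABC genes are 4 kb or longer and none is under 2 kb. In HCT116 oxpl-R the same medians were -0.04 and 0. The part of transcript length in the falls of ABC genes was not tested.

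In HCT116 oxpl-R, oxaliplatin raised 6 of the 31 ABC genes and lowered none, beside 6.09% of all expressed genes called, 2.96% higher and 3.14% lower. The 6 were ABCA1, ABCA3, ABCA12, ABCB6, ABCB9 and ABCG4, of which 4 are lipid and sterol transporters. The count of called ABC genes was 3 without replicate 1 or 2 of the untreated resistant cells. ABCA12 measured 0.722, 1.52 and 1.58 CPM untreated and 8.51, 4.56 and 20.5 CPM treated, which is 8.81-fold (log2FC 3.14 ± 0.51 (SE), adjusted p = 0.00306). ABCA1 measured 0.883, 1.14 and 1.01 CPM untreated against 3.19, 5.62 and 4.53 CPM treated, 4.4-fold (log2FC 2.14 ± 0.32 (SE), adjusted p = 0.00176). The treated samples of both genes lay above all untreated ones, and both calls held under all 12 alternatives, as did that of ABCB9. Without replicate 3 of the treated cells ABCA12 was 4.93-fold higher (log2FC 2.30, adjusted p = 0.0024). In HCT116 the responses were 1.92 ± 0.64 (adjusted p = 0.0551) for ABCA12, whose treated samples, at 1.08, 1.05 and 4.93 CPM, were all above the untreated ones at 0.636, 0.941 and 0.393 and which DESeq2 (0.0263), the fit of all 24 samples (0.0243) and the fits without replicate 1 or 2 of the treated cells (0.0338 and 0.0248) called, and -0.18 ± 0.71 (adjusted p = 0.874) for ABCA1, whose samples overlapped.

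Of the 9 efflux pumps, 8 were not called with oxaliplatin in HCT116 and none was called in HCT116 oxpl-R. In HCT116 the log2FC was -0.52 ± 0.53 (adjusted p = 0.507) for ABCB1, 0.20 ± 0.15 (adjusted p = 0.405) for ABCC1, -0.35 ± 0.22 (adjusted p = 0.296) for ABCC2, 0.27 ± 0.15 (adjusted p = 0.229) for ABCC3, -0.75 ± 0.28 (adjusted p = 0.0793) for ABCC4, 0.18 ± 0.17 (adjusted p = 0.507) for ABCC5 and -0.53 ± 0.33 (adjusted p = 0.29) for ABCG2. Replicate 3 of the treated parental cells moved several of these values past the threshold when it was left out: without it ABCC2 was at -0.73 (adjusted p = 2.65e-05), ABCC4 at -1.21 (7.23e-06) and ABCG2 at -0.98 (0.00448). ABCC4 was also called by DESeq2 (-0.77, 0.0488) and in the fit of all 24 samples (-0.83, 0.0125), and ABCC3 in the second table (0.62, 0.0241). In HCT116 oxpl-R the log2FC was 0.23 ± 0.54 (adjusted p = 0.859) for ABCB1, 0.38 ± 0.19 (adjusted p = 0.355) for ABCC1, 0.23 ± 0.20 (adjusted p = 0.612) for ABCC2, 0.62 ± 0.20 (adjusted p = 0.119) for ABCC3, 0.031 ± 0.24 (adjusted p = 0.97) for ABCC4, 0.30 ± 0.19 (adjusted p = 0.498) for ABCC5, 0.47 ± 0.20 (adjusted p = 0.273) for ABCC10 and -0.40 ± 0.41 (adjusted p = 0.657) for ABCG2. Replicate 3 of the untreated resistant cells, with 21.8 CPM of ABCG2, turned the sign of that value to 0.07 when it was left out, and replicate 3 of the treated cells turned ABCB1 to -0.39. ABCC3 was called in the fit of all 24 samples (0.62, 0.0272).

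Whether the lines responded differently to oxaliplatin was tested by the interaction term. None of the 31 ABC genes was called by edgeR, beside 3.9% of all expressed genes, and 4 had an unadjusted p below 0.05. DESeq2 called 2, ABCB8 among them. Among the 4 genes were ABCA1 at 2.33 ± 0.75 (adjusted p = 0.112), ABCD3 at 1.15 ± 0.47 (adjusted p = 0.229) and ABCB8 at -0.77 ± 0.25 (adjusted p = 0.114), where a positive value is a larger response in HCT116 oxpl-R. Without replicate 3 of the treated parental cells 5 genes were called, among them ABCC2 at 0.94 (adjusted p = 0.023) and ABCC4 at 1.22 (0.0229), and without replicate 3 of the untreated parental cells or replicate 1 of the treated resistant cells 1 was called. For the pumps the interaction was 0.76 ± 0.81 for ABCB1, 0.20 ± 0.25 for ABCC1, 0.60 ± 0.31 for ABCC2, 0.37 ± 0.25 for ABCC3, 0.80 ± 0.38 for ABCC4, 0.14 ± 0.26 for ABCC5, -0.30 ± 0.23 for ABCC10 and 0.14 ± 0.57 for ABCG2 (log2 ± SE).

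E1A induction changed 6 of the 31 ABC genes in the parental cells, 2 higher and 4 lower, beside 13.9% of all expressed genes, 4.21% higher and 9.67% lower. ABCB1 was the 1 gene past a fold change of 2, beside 1.45% of all expressed genes. It went from 1.44, 0.941 and 0.714 CPM to 3.31, 2.81 and 1.92 CPM, with every E1A sample above every untreated one (log2FC 1.32 ± 0.30 (SE), adjusted p = 0.00684). The call did not hold in a fit of all 24 samples (adjusted p = 0.438) or in the second deposited table (log2FC 0.57, adjusted p = 0.398). ABCA3 was called higher too, at 0.52 ± 0.15 (adjusted p = 0.0292). ABCC2 went from 184, 190.4 and 177 to 142, 137 and 97.4 CPM (log2FC -0.60 ± 0.12 (SE), adjusted p = 0.00209), ABCE1 was at -0.74 ± 0.14 (adjusted p = 0.00168) and ABCD3 at -0.45 ± 0.13 (adjusted p = 0.0331). The count was 3 without replicate 1 or 2 of the untreated cells, 2 in the second table and 0 in the fit of all 24 samples, so that none of the 6 calls held under all 12 alternatives. The calls of ABCA3 and ABCD3 were among those lost without replicate 1 of the untreated cells (adjusted p = 0.173 and 0.226), without replicate 2 (0.0852 and 0.154), without replicate 2 of the E1A cells (0.054 and 0.238) and in the second table (0.284 and 0.17). ABCA3 was also lost without replicate 1 of the E1A cells (0.122), and ABCD3 with filterByExpr (0.103).

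In HCT116 oxpl-R no ABC gene was called with E1A by edgeR or DESeq2, beside 0.117% of all expressed genes by edgeR, and 4 had an unadjusted p below 0.05, ABCA3, ABCB1, ABCC2 and ABCC3. ABCC2 measured 89.2, 77.8 and 95.5 CPM untreated and 62.3, 55.2 and 58.7 CPM with E1A, without overlap (log2FC -0.58 ± 0.14 (SE), adjusted p = 0.416). ABCB1 measured 1.69, 1.45 and 2.95 CPM untreated against 4.69, 2.49 and 6.21 CPM with E1A, with overlap (log2FC 1.13 ± 0.40 (SE), adjusted p = 0.733), ABCA3 was at 0.50 ± 0.22 (adjusted p = 0.805) and ABCC3 at -0.52 ± 0.16 (adjusted p = 0.656). The interaction of E1A and line had no ABC gene called or at an unadjusted p below 0.05 by edgeR and none called by DESeq2, beside 0.027% of all expressed genes called. The interaction was -0.21 ± 0.50 for ABCB1 and 0.003 ± 0.20 for ABCC2 (log2 ± SE).

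E1A added to oxaliplatin changed no ABC gene in HCT116, where edgeR and DESeq2 called none and none had an unadjusted p below 0.05, beside 0.0361% of all expressed genes called. In HCT116 oxpl-R edgeR called none, beside 0.947%, with ABCC2 and ABCC3 at an unadjusted p below 0.05, and DESeq2 called ABCC3. ABCC3 measured 56.7, 46.5 and 41.95 CPM with oxaliplatin and 28.1, 29.9 and 23.1 CPM with E1A + oxaliplatin in HCT116 oxpl-R, without overlap (log2FC -0.83 ± 0.23 (SE), adjusted p = 0.125). ABCC2 measured 121, 86.6 and 99.1 CPM with oxaliplatin against 67.8, 69.01 and 48.9 CPM with both, also without overlap (log2FC -0.72 ± 0.22 (SE), adjusted p = 0.224). Without replicate 3 of HCT116 oxpl-R under oxaliplatin 1 gene was called.

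**Figure D2:**
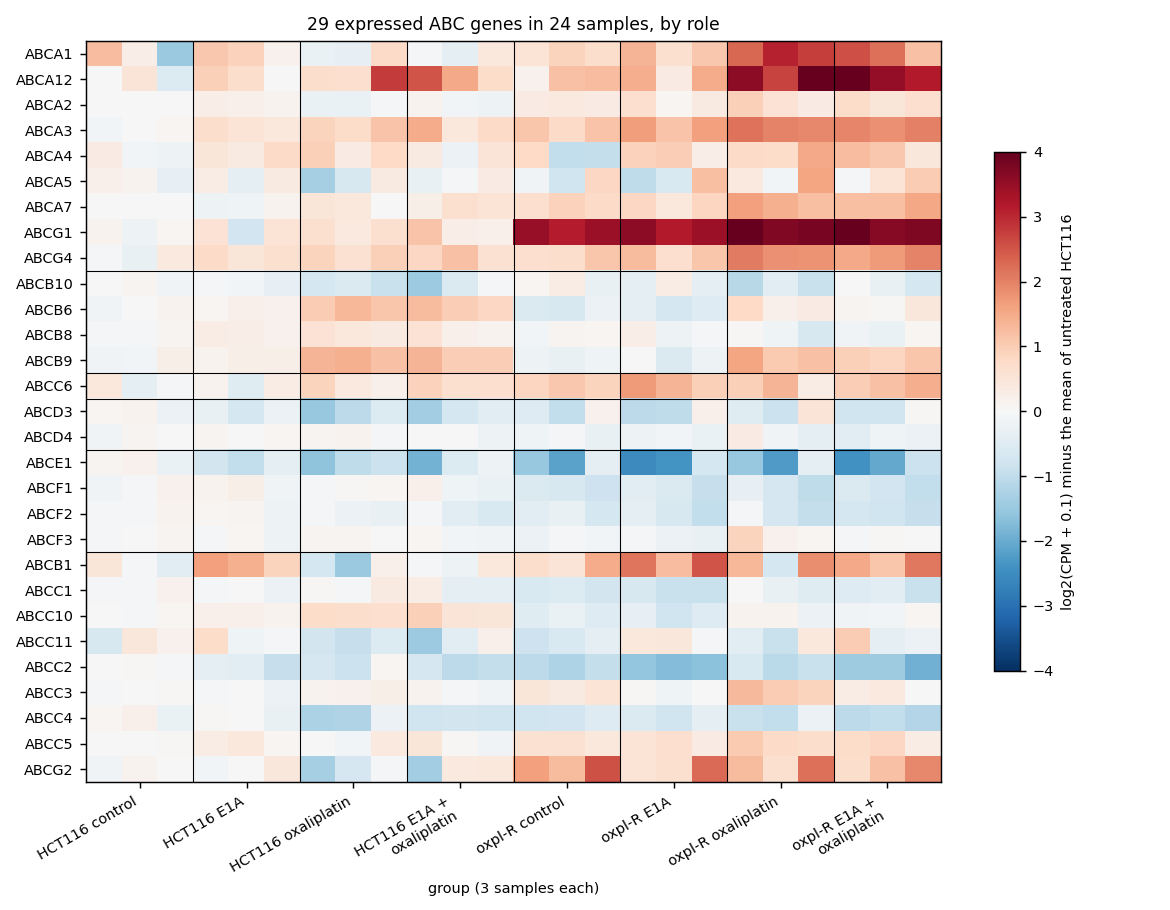
Level of 29 of the 31 expressed ABC genes in each of the 24 samples, as log2(CPM + 0.1) minus the mean of untreated HCT116, grouped by role, with red above and blue below that mean and the colour scale ending at 4 in both directions. The row of ABCG1 is dark red in all 12 HCT116 oxpl-R samples, and ABCC2 is blue in them.

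Genes that act beside the ABC genes were described from lists by symbol. The values of these listed genes were not examined under the alternative settings. Of 24 regulators of ABC gene transcription, 21 were in the table and 16 expressed. In the untreated lines 3 were called higher and 3 lower in HCT116 oxpl-R, with a median log2FC of 0, beside 41.2% of all expressed genes called. The higher ones were AHR, the dioxin receptor known to drive ABCG2, at 2.03 ± 0.12 (adjusted p = 8.15e-08), the liver X receptor gene NR1H2, whose protein drives ABCA1 and ABCG1, at 0.61 ± 0.11 (adjusted p = 0.00104), and HNF4A at 0.62 ± 0.15 (adjusted p = 0.00651). The lower ones were NFE2L2, whose protein drives several ABCC genes, at -0.74 ± 0.11 (adjusted p = 0.000249), RXRB at -0.49 ± 0.12 (adjusted p = 0.00594) and PPARD at -0.49 ± 0.11 (adjusted p = 0.00537). The counts higher and lower were 2 and 2 under oxaliplatin, 3 and 3 with E1A and 2 and 2 with both, beside 29.3%, 26.4% and 26.8% of all expressed genes called, and AHR was among the higher ones each time. RXRA, the partner of liver X receptors, was higher in HCT116 oxpl-R under oxaliplatin, at 1.28 ± 0.24 (adjusted p = 0.00237), and was the 1 regulator called in the test of the interaction of oxaliplatin and line, at 1.25 ± 0.26 (adjusted p = 0.018). Of the 16 regulators oxaliplatin changed 6 in HCT116, 4 higher and 2 lower, beside 33.5% of all expressed genes, and none in HCT116 oxpl-R, beside 6.09%. E1A lowered 2 in HCT116, beside 9.67% of all expressed genes lower, and in the other comparisons none was called, beside at most 0.947%.

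Glutathione S-transferases make the conjugates that ABCC pumps carry. Of 18 such genes 17 were in the table and 14 expressed, and in the untreated lines 6 were called higher and none lower in HCT116 oxpl-R, with a median log2FC of 0.26, beside 20.1% of all expressed genes higher and 21.1% lower. MGST2 was highest of them, at 1.14 ± 0.13 (adjusted p = 3.54e-05). With E1A also 6 were higher and none lower, beside 15.6% and 10.8% of all expressed genes. With E1A + oxaliplatin 3 were higher and 1 lower, beside 14.4% and 12.3%. With oxaliplatin none was higher and 1 was lower, beside 13.7% and 15.6%, namely GSTP1 at -1.07 ± 0.27 (adjusted p = 0.013). Oxaliplatin raised 4 of the 14 in HCT116, beside 18.8% of all expressed genes, GSTP1 among them at 1.16 ± 0.17 (adjusted p = 0.0018). It raised none in HCT116 oxpl-R, beside 2.96%. The interaction of oxaliplatin and line was called for GSTP1, at -1.03 ± 0.27 (adjusted p = 0.0472), beside 3.9% of all expressed genes. No glutathione S-transferase was called in the 5 remaining comparisons, beside 13.9% of all expressed genes for E1A in HCT116 and at most 0.947% in the others. Of the 18 ABC pseudogenes, readthrough and antisense genes, 2 were expressed, ABCC6P2 and ABCF2-H2BK1.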

How the data were processed

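RNA from 24 samples of HCT116 and HCT116 oxpl-R cells, 3 labelled as biological replicates in each of 8 groups, was sequenced. The authors deposited estimated counts per gene, made with Trimmomatic and Salmon 1.6.0 on GRCh38 per the labels and the study's methods (GENCODE 47), and a second table of estimated counts scaled by transcript length, although named as TPM. Neither the read assignment nor the strand setting was repeated here. The values were rounded to whole numbers, because between 15.9% and 30.4% of each sample's values had a fraction. Nothing says that the replicates were cultured on separate days, so p-values measure the spread between these samples.

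ABC genes were found by symbol in the table of 33113 genes, and a mean of at least 10 counts over all samples defined expressed genes. Of these, 2 ABC genes are counted in the totals but are not reported here by name or in the figures. The members, role groups and lists were chosen with earlier results of these data known. Genes were named with values if called with an absolute log2 fold change above 1, if they were drug pumps in comparisons of the lines or of oxaliplatin, or if they lay nearest to the limit of 10 counts; others were added after their values were seen.

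Each comparison was fitted on its own samples with edgeR 4.0.16 in R 4.3.3 (TMM, glmQLFit and glmQLFTest) over all genes with a count, with p-values adjusted by the Benjamini-Hochberg method over all genes tested. The code was tested on simulated data. Alternatives were RLE scaling, DESeq2 1.42.0, filterByExpr, a fit of all 24 samples, a replicate block, the second table and leaving out each sample. Gene positions and canonical transcript lengths came from GENCODE 44, and promoter windows from RefSeq. Same-numbered samples had correlations of 0.141, 0.188 and 0.253 over genes in the comparison of the lines under oxaliplatin. In HCT116 oxpl-R, replicates 2 and 3 had higher ones for oxaliplatin and for E1A, at 0.465 to 0.678, and replicate 1 had 0.084 and 0.028. The main fits did not use the replicate number. Totals of 24837986 to 37927670 counts leave genes of a few counts imprecise, and the limit of 3 counts that a count of 0 allows covers counting error only.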

Additional observations from a re-analysis of the deposited data

Results flagged for a closer look

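The response to oxaliplatin differed between the lines by the test of the interaction for 2 genes that were described beside the ABC genes. RXRA, the partner of liver X receptors, was at -0.998 ± 0.14 (adjusted p = 0.00161) in HCT116 and 0.24 ± 0.21 (adjusted p = 0.636) in HCT116 oxpl-R, and the difference of the log2 responses was 1.25 ± 0.26 (adjusted p = 0.018) by edgeR. GSTP1, a glutathione S-transferase, was at 1.16 ± 0.17 (adjusted p = 0.0018) in HCT116 and 0.12 ± 0.20 (adjusted p = 0.793) in HCT116 oxpl-R, with a difference of -1.03 ± 0.27 (adjusted p = 0.0472). Among all expressed genes 3.9% were called in that test, and none of the 31 expressed ABC genes was. Whether the calls of RXRA and GSTP1 hold under the alternative settings was not examined.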

How the results depend on the processing

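Values under alternative settings were tallied for genes called with an absolute log2 fold change above 1 and for the drug pumps. Of these 1008 values, 908 kept their direction and their side of the threshold, and 60 were no longer past it. Another 23 came past it and 17 changed sign, all of the last for genes that were not called. Calls of other named genes, that of ABCC6 in untreated cells among them, are outside this tally. RLE scaling moved no count of called ABC genes by more than 1.5 times. The fit of all 24 samples called 9 ABC genes between the untreated lines, 0 for E1A in HCT116 and 1 for E1A added to oxaliplatin in HCT116 oxpl-R. The second table called 5 between the lines under E1A + oxaliplatin and 2 for E1A in HCT116. DESeq2 called 2 for the interaction of oxaliplatin and line and 1 for E1A added to oxaliplatin in HCT116 oxpl-R, and filterByExpr called 1 for that interaction. Leaving out 1 sample gave 12 to 18 called genes for the untreated lines, 5 to 14 for the lines under oxaliplatin, 5 to 13 under E1A, 8 to 15 under both, 7 to 16 for oxaliplatin in HCT116, 3 to 7 in HCT116 oxpl-R, 0 to 5 for the interaction, 3 to 7 for E1A in HCT116 and 0 to 1 for E1A added to oxaliplatin in HCT116 oxpl-R. E1A in HCT116 oxpl-R, its interaction with line and E1A added to oxaliplatin in HCT116 gave 0 in every alternative run. The cause of these changes was not tested.

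Signs changed as follows. In the second table ABCC6, which was called higher between the untreated lines, was at -0.012. In the second table ABCC3 was at -0.065 between the lines under E1A, -0.225 under E1A + oxaliplatin and -0.175 in the interaction of oxaliplatin and line, and ABCC5 at -0.015 in that interaction. Leaving out samples put ABCC4 at -0.161 to 0.484 between the lines under oxaliplatin. For oxaliplatin in HCT116, it put ABCC5 at -0.032 to 0.279. In HCT116 oxpl-R it put ABCC4 at -0.288 to 0.184, ABCG2 at -0.993 to 0.07 and ABCB1 at -0.385 to 0.699, and in the interaction ABCG2 at -0.399 to 0.573.

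The replicate number as a block changed the count of called ABC genes from 14 to 17 between the lines under oxaliplatin. There all 3 numbers correlated, at 0.141 to 0.253, and ABCA5 (log2FC 1.10, adjusted p = 0.0116), ABCB1 and ABCC5 came past the threshold. In the other comparisons the correlations of same-numbered samples were negative or uneven across the numbers. In HCT116 oxpl-R, replicates 2 and 3 correlated at 0.465 and 0.547 for oxaliplatin and at 0.508 and 0.678 for E1A. Replicate 1 was at 0.084 and 0.028 there. The block gave 10 called genes instead of 6 for oxaliplatin in HCT116 oxpl-R, where it also put ABCC4 at -0.003 and ABCC3 past the threshold (adjusted p = 0.0364), and 1 instead of 6 for E1A in HCT116, where ABCB1 was at an adjusted p of 0.0523. It also ended the untreated calls of ABCA2, ABCB6, ABCC6 and ABCC10 (adjusted p = 0.0639, 0.0506, 0.0613 and 0.0728), that of ABCB6 with E1A (0.0613), and those of ABCB8, ABCD3 and ABCG4 for oxaliplatin in HCT116 (0.0661, 0.0735 and 0.0506). Not every sample correlated with its own number: the correlations of deviations ran from -0.316 to 0.678.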
